A study of Mus musculus with 36 samples.

Results

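Acetylation of histone H3 at lysine 9 (H3K9ac) was compared between the dorsal hippocampus of ethanol-treated mice with a knockdown of Acss2 and that of untreated control mice, the 2 conditions at opposite corners of the design. The members are the peak intervals of the 2 H3K9ac lists on the assembled chromosomes, 42120 in the ethanol-treated knockdown list and 38235 in the untreated control list. These make 80355 of the 546933 peaks in the 8 lists of the series. A peak with no base in common with the other list was counted as gained when it stood in the ethanol-treated knockdown list and as lost when it stood in the untreated control list. The rest were counted as shared.

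All mice were male and aged to 8 weeks, and each group has 3 samples. The ethanol-treated knockdown group received an adeno-associated virus (AAV2/9; U6.shACSS2.CMV.EGFP) into the dorsal hippocampus and ethanol by intraperitoneal injection, 2 g/kg as a 20% solution in saline. The U6 promoter drives the short hairpin RNA against Acss2, and it is active in many cell types. Which cells the virus reached is not given in the labels. The untreated control group carries the genotype label Control and no treatment. Which vector the controls received is not given in the labels. The untreated knockdown and the ethanol-treated control, each with 3 samples, are used below only to show where a peak stood in the intermediate conditions, and 4 further lists give acetylation of lysine 27 (H3K27ac) in the same 4 conditions. The labels name 1 list for the 3 samples of a group. The values below therefore have no replicate error, no test between conditions can be made, and sequencing depth is unknown. Intervals in brackets are 95% Wilson intervals and cover counting error only. With bulk tissue, fewer cells of a type and less acetylation per cell cannot be told apart.

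ACSS2 is the enzyme that joins acetate to coenzyme A in the cytosol and the nucleus. Acetate is an end product of ethanol breakdown, and acetyl-CoA is what histone acetyltransferases use to acetylate lysines. H3K9ac sits mainly at the promoters of active genes. In the hippocampus such promoters include those of synaptic, neuronal identity and activity-regulated genes.

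The 9 promoters below are examples of windows covered in 1 list only, chosen from genes described further on; both directions occur within a gene group, and they are no count of either. The first 5 belong to genes of excitatory neurons and presynaptic terminals with coverage in the ethanol-treated knockdown only, and the sixth to an interferon-stimulated gene. Those covered in the untreated control only belong to Stx1a, which encodes syntaxin 1A of presynaptic terminals, to a myelin gene, and to an adhesion G-protein-coupled receptor. Each window runs from 250 bases before to 50 bases after an annotated start and comes from RefSeq (GRCm38.p6), written 5′ to 3′ on the strand of the gene. Capitals mark the bases inside a peak of the 1 list of the pair that covers the window. Tbr1 (chr2:61804203-61804502, plus strand), Slc17a7 (chr7:45163671-45163970, plus), Syn2 (chr6:115134652-115134951, plus), Syp (chrX:7638330-7638629, plus), Sv2c (chr13:96132528-96132827, minus) and Ifit1 (chr19:34640639-34640938, plus) were covered in the ethanol-treated knockdown list. Stx1a (chr5:135023232-135023531, plus), Cldn11 (chr3:31149670-31149969, plus) and Adgrg6 (chr10:14544987-14545286, minus) were covered in the untreated control list.
Tbr1: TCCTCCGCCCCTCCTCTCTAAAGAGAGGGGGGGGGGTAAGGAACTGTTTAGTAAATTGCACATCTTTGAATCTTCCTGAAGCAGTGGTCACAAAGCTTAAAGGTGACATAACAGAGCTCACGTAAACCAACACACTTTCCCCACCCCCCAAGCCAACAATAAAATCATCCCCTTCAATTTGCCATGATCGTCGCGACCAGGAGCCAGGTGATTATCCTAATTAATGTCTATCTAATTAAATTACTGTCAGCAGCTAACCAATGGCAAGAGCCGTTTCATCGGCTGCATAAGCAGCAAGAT
Slc17a7: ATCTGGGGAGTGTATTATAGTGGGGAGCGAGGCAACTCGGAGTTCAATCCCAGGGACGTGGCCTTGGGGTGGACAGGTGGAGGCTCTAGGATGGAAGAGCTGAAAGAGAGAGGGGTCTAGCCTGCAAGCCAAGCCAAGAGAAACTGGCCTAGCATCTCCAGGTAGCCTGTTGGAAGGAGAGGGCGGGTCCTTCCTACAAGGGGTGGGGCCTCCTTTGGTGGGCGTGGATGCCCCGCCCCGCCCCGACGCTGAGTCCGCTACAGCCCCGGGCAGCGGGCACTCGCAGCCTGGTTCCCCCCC
Syn2: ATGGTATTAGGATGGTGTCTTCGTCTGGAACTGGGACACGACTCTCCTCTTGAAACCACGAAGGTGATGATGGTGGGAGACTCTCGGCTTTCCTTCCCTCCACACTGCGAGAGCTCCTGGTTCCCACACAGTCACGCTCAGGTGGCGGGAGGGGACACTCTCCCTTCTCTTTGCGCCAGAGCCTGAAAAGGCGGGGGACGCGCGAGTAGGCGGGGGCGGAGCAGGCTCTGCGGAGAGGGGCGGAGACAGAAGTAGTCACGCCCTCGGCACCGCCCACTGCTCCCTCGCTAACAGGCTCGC
Syp: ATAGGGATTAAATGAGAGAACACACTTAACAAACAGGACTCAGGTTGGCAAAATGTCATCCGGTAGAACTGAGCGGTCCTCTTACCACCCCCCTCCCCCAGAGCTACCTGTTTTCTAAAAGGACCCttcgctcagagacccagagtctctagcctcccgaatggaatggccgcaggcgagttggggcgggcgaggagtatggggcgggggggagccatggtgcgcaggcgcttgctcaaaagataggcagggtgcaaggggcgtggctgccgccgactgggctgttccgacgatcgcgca
Sv2c: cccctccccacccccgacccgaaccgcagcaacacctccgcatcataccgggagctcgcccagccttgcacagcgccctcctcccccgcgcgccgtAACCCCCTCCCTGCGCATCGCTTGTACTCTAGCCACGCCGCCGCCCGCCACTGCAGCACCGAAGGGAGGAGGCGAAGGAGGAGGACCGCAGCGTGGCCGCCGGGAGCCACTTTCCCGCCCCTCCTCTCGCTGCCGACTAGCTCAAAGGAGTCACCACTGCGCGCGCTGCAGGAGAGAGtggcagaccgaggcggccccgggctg
Ifit1: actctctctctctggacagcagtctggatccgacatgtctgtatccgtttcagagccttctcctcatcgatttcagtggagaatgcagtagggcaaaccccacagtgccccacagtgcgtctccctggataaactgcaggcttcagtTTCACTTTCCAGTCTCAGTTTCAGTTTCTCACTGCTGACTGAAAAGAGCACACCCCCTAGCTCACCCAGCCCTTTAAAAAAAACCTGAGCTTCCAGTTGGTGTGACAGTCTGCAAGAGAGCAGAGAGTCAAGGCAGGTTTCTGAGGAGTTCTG
Stx1a: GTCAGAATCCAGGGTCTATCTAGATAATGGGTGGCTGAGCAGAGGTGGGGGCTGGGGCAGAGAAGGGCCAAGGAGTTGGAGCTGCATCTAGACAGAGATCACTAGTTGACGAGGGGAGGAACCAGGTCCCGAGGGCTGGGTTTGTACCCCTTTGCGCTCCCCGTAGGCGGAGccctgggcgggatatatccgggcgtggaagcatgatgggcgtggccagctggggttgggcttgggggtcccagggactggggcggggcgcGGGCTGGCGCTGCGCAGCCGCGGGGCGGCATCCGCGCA
Cldn11: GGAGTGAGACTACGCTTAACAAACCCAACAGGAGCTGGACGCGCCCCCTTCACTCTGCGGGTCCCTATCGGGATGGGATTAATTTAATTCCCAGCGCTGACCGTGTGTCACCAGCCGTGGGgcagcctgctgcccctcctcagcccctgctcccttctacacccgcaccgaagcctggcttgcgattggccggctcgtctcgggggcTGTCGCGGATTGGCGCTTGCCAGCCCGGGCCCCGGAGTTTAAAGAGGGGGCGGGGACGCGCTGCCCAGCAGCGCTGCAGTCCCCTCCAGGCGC
Adgrg6: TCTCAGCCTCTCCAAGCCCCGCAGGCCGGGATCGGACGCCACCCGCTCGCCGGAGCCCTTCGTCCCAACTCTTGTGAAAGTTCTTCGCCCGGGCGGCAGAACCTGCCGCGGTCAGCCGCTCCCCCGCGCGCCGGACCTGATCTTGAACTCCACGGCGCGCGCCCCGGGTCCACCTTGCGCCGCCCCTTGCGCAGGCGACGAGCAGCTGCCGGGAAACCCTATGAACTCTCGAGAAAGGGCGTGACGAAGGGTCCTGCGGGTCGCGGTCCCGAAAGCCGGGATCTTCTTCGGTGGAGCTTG
Tbr1, Slc17a7 and Syn2 had all 300 bases of the window inside a peak in the ethanol-treated knockdown list and 0 in the untreated control list. Sv2c had 178, Ifit1 153 and Syp 126 bases covered in the ethanol-treated knockdown list, each against 0 in the untreated control list. Stx1a had 0 bases covered in the ethanol-treated knockdown list and 210 in the untreated control list, Cldn11 had 0 and 214, and Adgrg6 had 0 and 300. A window without coverage in 1 list can still lie next to a peak of that list. At Slc17a7 the untreated control peak ran from 45163979 to 45166203, just downstream of the window, and at Cldn11 an ethanol-treated knockdown peak ran from 31150037 to 31150514. The GC box GGGCGG, the core of the Sp1 binding motif, was found on 1 strand or the other in each of these windows except that of Ifit1.

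The 2 lists were close in size and shared most of their area. The ethanol-treated knockdown list covered 24.1 Mb and the untreated control list 22.6 Mb, so the list of the ethanol-treated knockdown was 10.2% longer and covered 6.69% more bases. The lists had 18.2 Mb in common, with 5.90 Mb found only in the ethanol-treated knockdown list and 4.39 Mb only in the untreated control list. Median peak width was 359 bp in the ethanol-treated knockdown list and 390 bp in the untreated control list. The untreated knockdown list covered 21.7 Mb and the ethanol-treated control list 16.1 Mb, the smallest of the 4.

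Of the ethanol-treated knockdown peaks, 12538 were gained, or 29.8% of the list (29.3 to 30.2). Of the untreated control peaks, 8248 were lost, or 21.6% of the list (21.2 to 22.0). Gained and lost peaks were alike in form. Their median widths were 185 and 192 bp, against 561 bp for shared peaks of the ethanol-treated knockdown list and 527 bp for those of the untreated control list. Only 817 gained peaks (6.52%) reached the median score of the ethanol-treated knockdown list, and only 287 lost peaks (3.48%) reached that of the untreated control list. The score is the authors' own and was taken to be −log10 of a q-value for the peak over input. It therefore ranks significance, which grows with depth, and is no measure of peak height.

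The share of peaks without a counterpart followed the score. In the lowest score decile of each list, 69.9% of ethanol-treated knockdown peaks and 59.1% of untreated control peaks had no counterpart. In decile 6 these shares were 15.5% and 6.30%, and in the highest decile they were 0.0475% and 0.0262%, which are 2 peaks and 1 peak. A counterpart also lay close by in many cases, since 39.8% of gained peaks and 42.3% of lost peaks were within 500 bp of a peak of the other list.

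**Figure D1:**
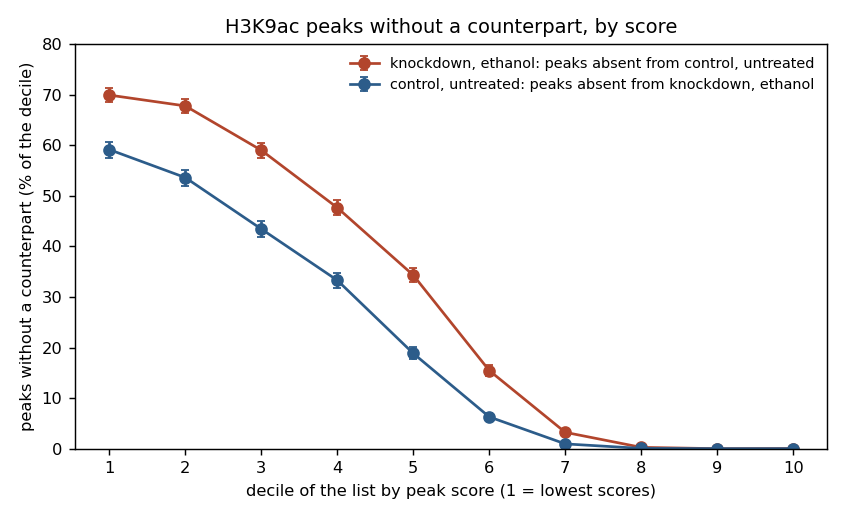
Share of H3K9ac peaks without a counterpart in the other list (vertical axis, percent) by score decile of the list (horizontal axis, lowest first), for ethanol-treated knockdown peaks and untreated control peaks; bars are 95% Wilson intervals. Both shares are above 50% in the 2 lowest deciles and under 1% in the 3 highest, and the ethanol-treated knockdown list lies above the untreated control list in deciles 1 to 8.

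Shared peaks sat at gene ends more often than peaks found in 1 list only. By midpoint, 15.3% of gained peaks lay within 1.0 kb of a gene end, 64.1% inside a gene and 20.6% outside genes. For lost peaks these shares were 15.7%, 66.4% and 17.9%. Among shared peaks of the ethanol-treated knockdown list, 53.5% lay at a gene end. Seen from the position, 10.8% of the ethanol-treated knockdown peaks at gene ends were gained, against 44.4% of those inside genes and 41.1% of those outside. Of the untreated control peaks, 7.55% at gene ends, 34.4% inside genes and 28.6% outside were lost.

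More of the bases found in 1 list only were at the edges of shared peaks than in peaks that stood alone. Edges held 54.4% of the bases found only in the ethanol-treated knockdown list and 58.8% of those found only in the untreated control list. In 20181 cases 1 peak matched 1 peak. Of these pairs, 53.1% were wider in the ethanol-treated knockdown list and 46.6% were narrower, with a median difference of 10 bp (quartiles −76 and 108).

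The other 2 H3K9ac lists place these differences in the design. Of the gained peaks, 25.6% (24.9 to 26.4) overlapped a peak of the untreated knockdown list and 10.6% (10.1 to 11.2) a peak of the ethanol-treated control list. Neither list held 8708 of them (69.5%), so these were present only in the ethanol-treated knockdown among the 4 conditions. Lost peaks gave similar shares, since 2027 (24.6%) were found in the untreated knockdown, 988 in the ethanol-treated control and 5716 (69.3%) in neither. Shared peaks of the ethanol-treated knockdown list were found at 86.6% and 75.9%. The ethanol-treated control list is the shortest with 31042 peaks and the untreated knockdown list has 38484, and the part of list length in these shares was not tested.

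H3K27ac, read with another antibody, was present at most of these places. A peak of H3K27ac in the ethanol-treated knockdown overlapped 71.7% of gained, 67.6% of lost and 95.8% of shared H3K9ac peaks. A peak of H3K27ac in the untreated control overlapped 54.9% of gained, 57.7% of lost and 93.1% of shared peaks. The H3K27ac list was itself longer in the ethanol-treated knockdown, with 119317 peaks against 89935 in the untreated control.

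**Figure D2:**
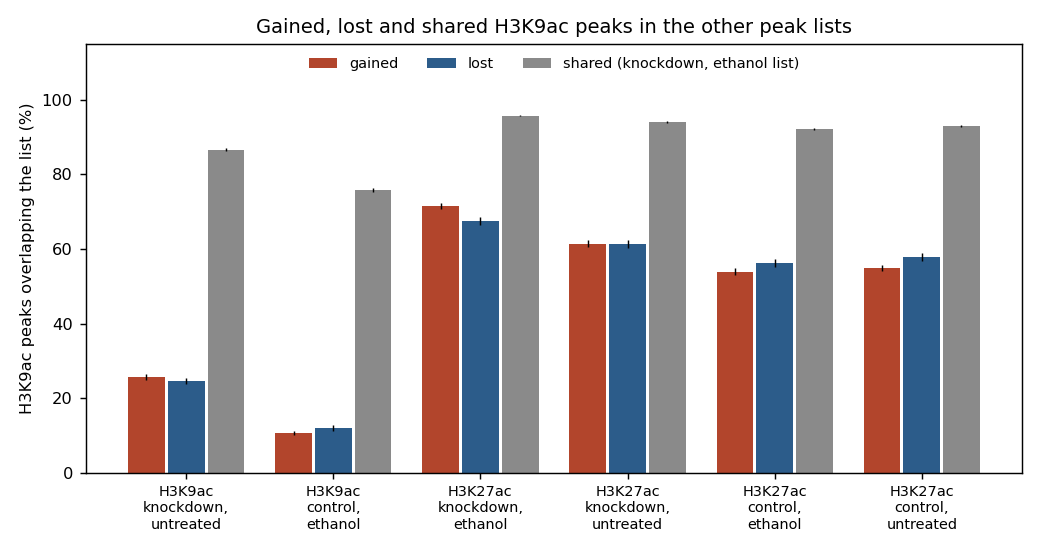
Share of gained, lost and shared H3K9ac peaks (vertical axis, percent) that overlap a peak of each of 6 other lists (horizontal axis: mark, genotype and treatment); bars are 95% Wilson intervals. Gained peaks overlapped the untreated knockdown list at 25.6% and the ethanol-treated control list at 10.6%, and every H3K27ac list held over 50% of gained and lost peaks.

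At gene level the presence of a peak was nearly the same in both conditions. Among 21887 protein-coding genes, 12859 had a peak within 1.0 kb of either end in the ethanol-treated knockdown and 12726 in the untreated control, and 12433 had one in both. An end peak was gained by 426 genes, 4.65% of the 9161 genes that had none in the untreated control. An end peak was lost by 293 genes, 2.3% of the 12726 that had one there. Of the gained genes, 163 had an end peak in the untreated knockdown, 85 in the ethanol-treated control and 234 (54.9%) in neither. Of the lost genes, 118 had one in the untreated knockdown, 78 in the ethanol-treated control and 139 (47.4%) in neither. For H3K27ac, 88 of the 426 gained genes had an end peak in the ethanol-treated knockdown and not in the untreated control, and 12 the reverse. Lost genes leaned the same way, with 55 of 293 against 15. So did genes with an H3K9ac end peak in both lists, with 67 of 12433 against 11. The part of the longer H3K27ac list in these counts was not tested.

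The highest-scoring gained and lost end peaks were boundary cases. The 10 highest-scoring gained ones belonged to Supv3l1, Chrd, Arnt2, Shisa6, Acot4, Lratd2, Pcmtd1, Cspg5, Rbm48 and Ajap1, and the 10 highest-scoring lost ones to Zbed3, 4930453N24Rik, Fam166a, Trim13, Zfp341, Lmbrd1, Gm38523, Pcdh9, Tbl1x and Mmp23. In all 20 the peak overlapped a peak of the other list that ended outside the window. Chrd, which encodes the BMP antagonist chordin, had 1048 covered bases in the ethanol-treated knockdown and 809 in the untreated control. Pcdh9, a protocadherin, had 848 and 890. Such a case made up 38 of the 426 gained and 24 of the 293 lost genes.

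The other 388 gained and 269 lost genes had an end peak with no counterpart, and these peaks scored low, with median score percentiles of 26.6 and 24.5 within their lists. The genes named next, the highest-scoring of them, were chosen after their values were seen. Gained were Trpm2, Layn, Zim1, Stac, Slc25a21, Olfr1458, Plin5, Wnt5a, Crabp2 and Fbxo39. Stac, an adaptor of voltage-gated calcium channels, had 539 covered bases in the ethanol-treated knockdown, 287 in the untreated knockdown, 156 in the ethanol-treated control and 0 in the untreated control. Wnt5a, a Wnt ligand, had 967, 539, 187 and 0 in the same order of conditions, and Trpm2, a calcium-permeable channel opened by oxidative stress, had 209, 145, 0 and 0. The order of the intermediate conditions differed among the 10 genes. Plin5, a lipid droplet protein, had 590, 156, 469 and 331, and Fbxo39 had 487, 0, 150 and 0, so that both had more in the ethanol-treated control than in the untreated knockdown. Lost were Tbc1d30, Adgrg6, Adgrv1, Igfbp2, Acvrl1, Mtnr1a, Nmrk2, Eps8l1, Wdr66 and Adamtsl3. Adgrg6 had 0 covered bases in the ethanol-treated knockdown, 249 in the untreated knockdown, 226 in the ethanol-treated control and 752 in the untreated control. Mtnr1a, a melatonin receptor gene, had 0 in every condition except the untreated control, with 220.

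The bases inside peaks near gene ends were compared as well as the presence of a peak. Covered bases were counted within 2.0 kb of either gene end. Of 13704 genes with covered bases in either list, 7665 (55.9%) had more in the ethanol-treated knockdown and 6021 (43.9%) had fewer, with a median difference of 35 bp (quartiles −131 and 205). At a fold of 1.5 and a difference of 300 bp, 661 genes (4.82%) were called higher and 406 (2.96%) lower. These shares are the background against which the gene groups below are read. The median over these genes was 1370 bp in the ethanol-treated knockdown, 1286 in the untreated knockdown, 1030 in the ethanol-treated control and 1325 in the untreated control, so the ethanol-treated knockdown was highest and the ethanol-treated control lowest over all genes as well.

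Acss2 itself (chr2:155518043-155562743) had 1156 covered bases in the ethanol-treated knockdown, 996 in the untreated knockdown, 981 in the ethanol-treated control and 1582 in the untreated control. It kept an end peak in all 4 conditions and was highest in the untreated control. Its H3K27ac covered 1634 bases in the ethanol-treated knockdown and 1389 in the untreated control. A hairpin acts on the transcript, so coverage by peaks is no measure of the knockdown.

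The largest increases in covered bases were at Midn, Thbs3, Arl3, Kcnj11, Gm9780, Plac9b, Plac9a, Hspa8, Fam53b and Anxa11. Midn (chr10:80146005-80158368), whose product midnolin takes proteins of immediate early genes to the proteasome, had 2190 covered bases in the ethanol-treated knockdown, 1305 in the untreated knockdown, 0 in the ethanol-treated control and 173 in the untreated control. Hspa8, the constitutive HSC70 chaperone, had 4614, 4127, 3240 and 3130, and Kcnj11, the pore of the ATP-sensitive potassium channel, had 2315, 1463, 337 and 787. At every gene named in this paragraph both knockdown conditions lay above both control conditions. In some the gap was small, as at Arl3, with 1991 in the untreated knockdown and 1922 in the ethanol-treated control. Choosing the largest increases fixes that the ethanol-treated knockdown lies above the untreated control. The ethanol-treated control was also lowest over all genes, and the share of all genes with this order was not counted. Thbs3, a thrombospondin, had 4941, 3317, 2520 and 3298, and was far above the other conditions only in the ethanol-treated knockdown. Gm9780 and Plac9b had the same values in all 4 conditions, 2324 bp in the ethanol-treated knockdown and 833 in the untreated control, and lie near Plac9a, with 2009 and 524, on chromosome 14. They are treated as uncertain, since how reads were shared between like genes was not tested.

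The largest decreases were at Mapk8ip3, Car14, Gm10277, Iqcj, Kifc5b, Mpv17l2, Pak4, Fzr1, Eps8l2 and Lrrc14. Mapk8ip3 (chr17:24897506-24936977), the JIP3 scaffold of axonal transport, had 3980 covered bases in the ethanol-treated knockdown, 4342 in the untreated knockdown, 3938 in the ethanol-treated control and 5336 in the untreated control. Car14, a membrane carbonic anhydrase, had 789, 1740, 1682 and 2128. Iqcj (chr3:67892220-68056593) had 0, 471, 207 and 1215, and was the only one of these 10 genes with no covered base left in the ethanol-treated knockdown. Each of these 3 was highest in the untreated control, which choosing the largest decreases fixes in part.

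**Figure D3:**
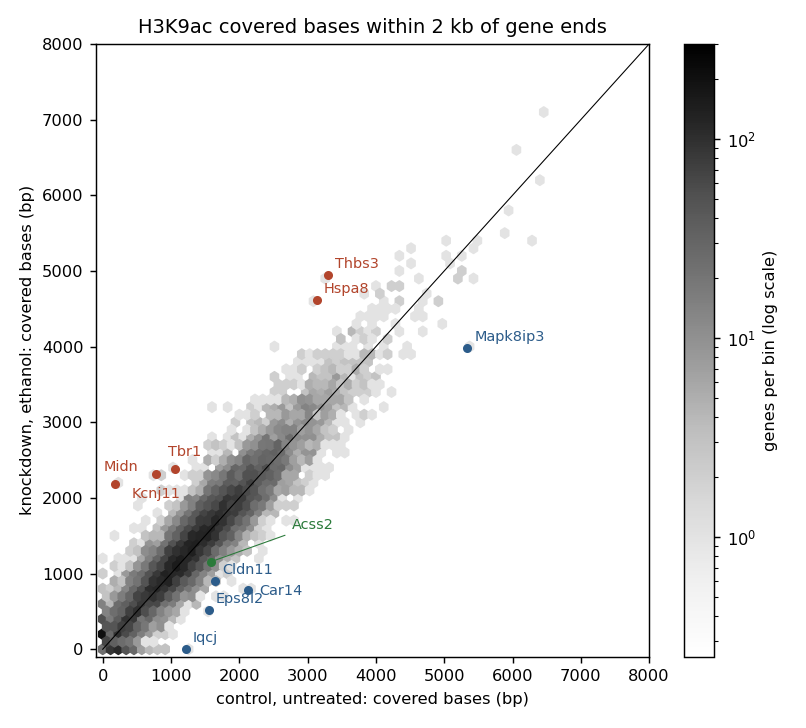
H3K9ac covered bases within 2.0 kb of the ends of each gene in the ethanol-treated knockdown (vertical axis, bp) and the untreated control (horizontal axis, bp); grey shading counts genes per bin on a log scale, the line marks equal values, and coloured points are named genes. Most of the 13704 genes lie near the line; Midn lies at 2190 and 173 bp, and Iqcj at 0 and 1215 bp.

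Lists of brain cell markers differed in how many members had an end peak. Of 24 markers of excitatory neurons, 22 had an end peak in the ethanol-treated knockdown and 21 in the untreated control, against 7 and 8 of 30 genes of other tissues. Markers of astrocytes (19 and 17 of 25) and of the oligodendrocyte lineage (20 and 19 of 28) were also mostly present, and markers of microglia and macrophages were mostly absent (6 and 7 of 27). Hippocampal subfield markers had end peaks at 20 and 19 of 26. So did 15 and 14 of 25 markers of ependyma, choroid plexus and neighbouring regions, and only 8 and 7 of 24 inhibitory neuron markers. The lists therefore do not by themselves show a hippocampal origin.

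Markers of excitatory neurons had the highest median difference of the 26 gene lists compared. Of 22 members with covered bases, 18 had more in the ethanol-treated knockdown and 4 had fewer, with a median difference of 378 bp against 35 bp over all genes, and 3 were called higher and 0 lower. Tbr1 (chr2:61802863-61814114), a T-box factor of glutamatergic neurons, had 2387 covered bases in the ethanol-treated knockdown, 1688 in the untreated knockdown, 578 in the ethanol-treated control and 1061 in the untreated control. Its peak at chr2:61803573-61806245 was 2673 bp wide, and the start window printed above lies inside it. It was counted as a gained end peak although it overlaps a control peak farther inside the gene. Neurod2, a helix-loop-helix factor of the same cells, had 3734, 3044, 2284 and 2843 bp, and Neurod6 had 1542, 642, 0 and 743. Camk2a, the alpha subunit of the calcium/calmodulin kinase of the synapse, had 2177, 1299, 1128 and 1372. At all 4 genes the ethanol-treated knockdown was highest and the ethanol-treated control lowest, which is also the order of the medians over all genes. The exceptions in the list were Emx2, with 3062 bp in the ethanol-treated knockdown and 3463 in the untreated control, Nrgn with 2131 and 2451, Fezf2 with 1010 and 1051, and Lhx2 with 1049 and 1088.

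In the glutamate receptor and postsynaptic density list 22 of 32 members had more covered bases and 10 fewer (median 159.5 bp), with 4 called higher and 0 lower. The share of members with more was 68.8% (51.4 to 82.1), against 55.9% of all genes. Members of a list are not replicates of a condition, so such an interval is no test of any list. Grm2, a presynaptic metabotropic receptor, had 2820 bp in the ethanol-treated knockdown and 1956 in the untreated control, and Grin2d, an NMDA receptor subunit, had 2997 and 2134. Grm5 had 1549 and 812. Grik1, a kainate receptor subunit, gained an end peak and had 721, 237, 0 and 0 bp in the ethanol-treated knockdown, untreated knockdown, ethanol-treated control and untreated control. The scaffold gene Dlg4, which encodes PSD-95, differed in the other direction, with 1920 bp in the ethanol-treated knockdown and 2290 in the untreated control.

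In the GABA signalling list 16 of 18 members had more covered bases and 2 fewer, with a median difference of 180 bp and 3 called higher. With the same minimum score in both lists 10 of 17 had more and 7 fewer (58.8%, against 54.2% of all genes), and the median was 179 bp. The receptor subunit Gabrb2 had 1887 bp in the ethanol-treated knockdown, 1427 in the untreated knockdown, 897 in the ethanol-treated control and 1251 in the untreated control. Abat, the transaminase that breaks down GABA, had 1488, 780, 792 and 972. Gabra3 gained an end peak of 214 bp that none of the other 3 conditions held. Gabra4 and Gabrb1 share a divergent promoter and have a single set of values, so the 18 members are not all separate counts. Gabbr2, a subunit of the metabotropic GABA receptor, had fewer covered bases, with 2476 in the ethanol-treated knockdown and 2517 in the untreated control.

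Among presynaptic release genes 19 of 30 had more covered bases and 11 fewer (median 104 bp). The share with more was 63.3% (45.5 to 78.1), against 55.9% of all genes. Stx1a had 871 bp in the ethanol-treated knockdown and 983 in the untreated control. Syp, which encodes the vesicle protein synaptophysin, had 1503 bp in the ethanol-treated knockdown, 754 in the untreated knockdown, 650 in the ethanol-treated control and 776 in the untreated control. Slc17a7, the vesicular glutamate transporter of excitatory terminals, had 2623, 2205, 1094 and 2098, and Snap25, a core protein of vesicle fusion, had 2503, 1808, 1483 and 2007. Sv2c, a synaptic vesicle protein, gained an end peak and had 1012 bp in the ethanol-treated knockdown and 589 in the untreated control. Syt2, a calcium sensor of fast release, lost one and had 0 bp in the ethanol-treated knockdown and 345 in the untreated control within 2.0 kb of its ends. Another annotated start of Syt2, farther inside the gene, had 236 of its 300 bases covered in the ethanol-treated knockdown and 0 in the untreated control. Voltage-gated ion channels had 18 members with more and 10 with fewer covered bases (median 66 bp). Scn2a, a sodium channel, had 1455 and 758 bp in the ethanol-treated knockdown and the untreated control, and Kcna4 and Kcnd3, both potassium channels, had 1661 and 1156, and 2875 and 2429. Scn1a lost its only end peak, 148 bp wide.

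**Figure D4:**
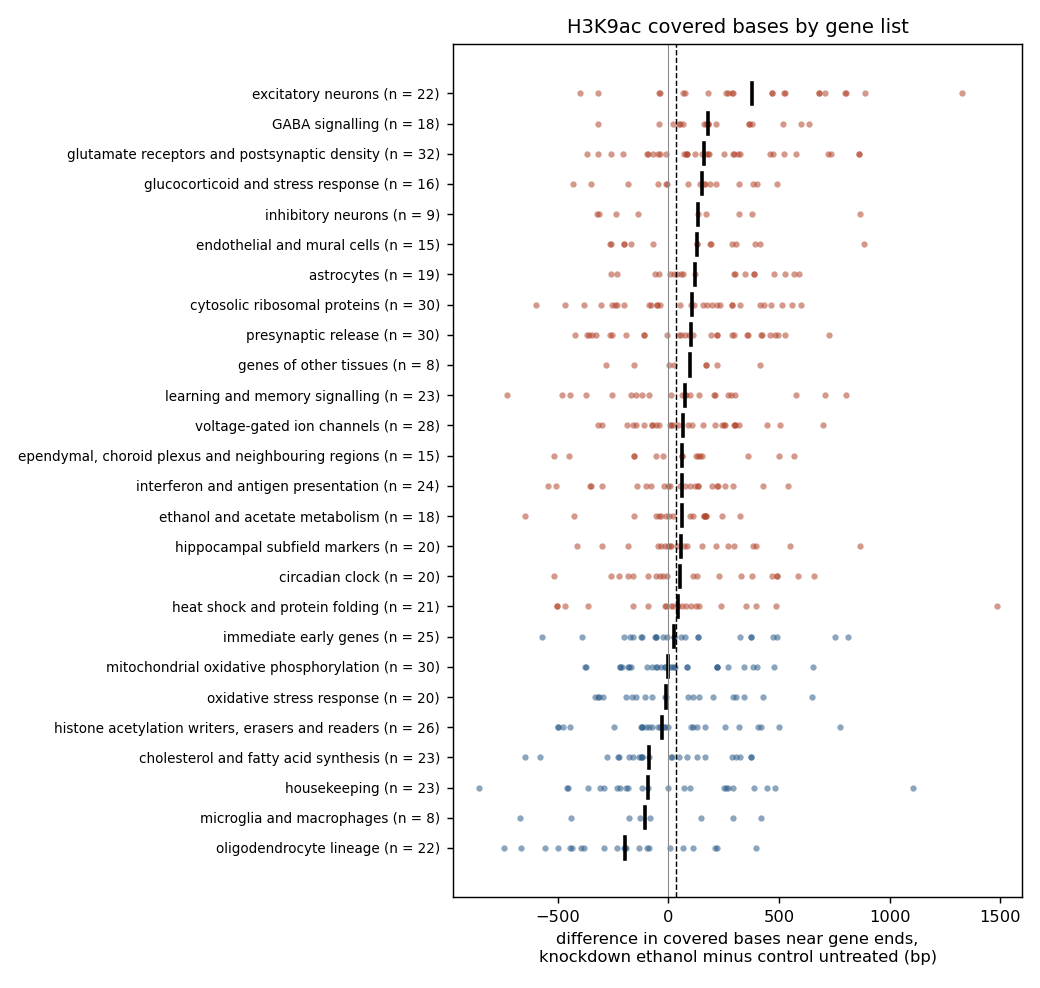
Difference in H3K9ac covered bases, ethanol-treated knockdown minus untreated control (horizontal axis, bp), for each gene with covered bases in 26 lists (rows; n is the number of genes); each point is 1 gene, black bars are list medians, the dashed line is the median over all genes at 35 bp, and red or blue marks a list median above or below it. List medians run from 378 bp for excitatory neurons to −198 bp for the oligodendrocyte lineage, and the points of every list extend to both sides of 0.

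Glial lists pointed in different directions. The oligodendrocyte lineage had the lowest median of the 26 lists: 6 of 22 members had more covered bases in the ethanol-treated knockdown and 16 had fewer, with a median difference of −198 bp and 0 called higher and 5 lower. The 5 were Cldn11, Olig2, Mal, Mobp and Nkx2-2. Cldn11 (chr3:31149920-31164326), the claudin of myelin tight junctions, had 902 bp in the ethanol-treated knockdown, 871 in the untreated knockdown, 997 in the ethanol-treated control and 1646 in the untreated control. Olig2, the transcription factor of the lineage, had 642, 778, 921 and 1309, and Mal, a myelin proteolipid, had 827, 794, 1137 and 1385. At all 3 the untreated control stood above the other conditions, which for the ethanol-treated knockdown follows from the call. The list median itself was 864.5 bp in the ethanol-treated knockdown, 781.5 in the untreated knockdown, 906 in the ethanol-treated control and 1314 in the untreated control. Nkx2-2, a homeobox factor of the lineage, lost 1 end peak, whereas Cspg4, the NG2 proteoglycan of precursor cells, and Ermn, a cytoskeletal protein of myelin, gained one. The gained peak of Cspg4 overlapped a control peak outside the window. Ermn had 415 bp in the ethanol-treated knockdown and 206 in the untreated control. Other myelin genes were near equal, such as Mbp with 1781 and 1716 bp and Gpr37 with 2768 and 2762. The excitatory neuron and oligodendrocyte medians, 378 and −198 bp, had opposite signs in the same tissue, and the part of the cell makeup of the dissected samples in either was not tested.

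Astrocyte markers had 15 of 19 members with more covered bases and 4 with fewer (median 121 bp), with 3 called higher and 0 lower. Gjb6, the connexin 30 gap junction protein, had 959 bp in the ethanol-treated knockdown, 325 in the untreated knockdown, 301 in the ethanol-treated control and 367 in the untreated control. Mlc1, a membrane protein of astrocyte endfeet, gained an end peak and had 528, 296, 168 and 0 bp. Glul, glutamine synthetase, had 2829 bp in the ethanol-treated knockdown and 2259 in the untreated control, and the lipid carrier gene Apoe, which also gained an end peak, had 692 and 347. Microglial and macrophage markers with any coverage were few: 3 had more and 5 fewer. Olfml3 had 846 bp in the ethanol-treated knockdown and 1519 in the untreated control, Aif1, which encodes the microglial marker IBA1, had 0 and 442, and Irf8 had 858 and 441. Cd68 lost an end peak and had 863 and 945 bp within 2.0 kb of its ends.

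**Figure D5:**
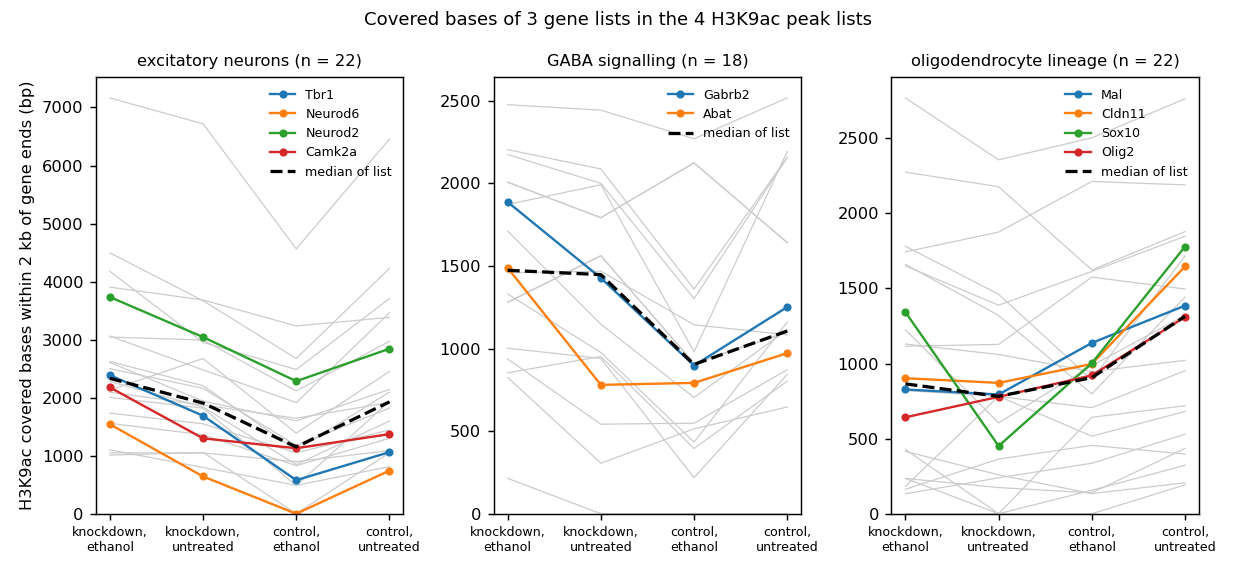
H3K9ac covered bases within 2.0 kb of gene ends (vertical axis, bp) in the 4 conditions (horizontal axis) for excitatory neuron markers, GABA signalling genes and oligodendrocyte lineage markers; each line is 1 gene, coloured lines are named genes and the dashed line is the list median. The excitatory neuron median is 2332 bp in the ethanol-treated knockdown, and 1927 bp in the untreated control, and the oligodendrocyte median is 864.5 and 1314 bp.

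Several vessel genes differed in whether an end peak was present. Among endothelial and mural cell markers 5 of the 18 without an end peak in the untreated control gained one, against 4.65% of all genes, and 2 of the 10 with one there lost it, against 2.3%. These are counts of a few small peaks. Of the 9161 genes behind the 4.65%, 8735 had an end peak in neither list. Other lists also stood above it, such as astrocytes with 2 of 8, the oligodendrocyte lineage with 2 of 9 and glucocorticoid genes with 2 of 10. Cspg4 is a member of both the vessel and the oligodendrocyte lists, so its gain is counted in each. Some lists had none, such as microglial markers with 0 of 20 and genes of other tissues with 0 of 22. Cldn5, the claudin of the blood-brain barrier, had 414 bp in the ethanol-treated knockdown, 145 in the untreated knockdown, 181 in the ethanol-treated control and 0 in the untreated control, and Lef1 had 393, 629, 208 and 0. Kcnj8, Vtn and Cspg4, genes of pericytes, also gained an end peak, of which those of Vtn and Cspg4 overlapped a control peak outside the window. Foxq1 had 1855 bp in the ethanol-treated knockdown and 970 in the untreated control. The lost ones were Flt1, a VEGF receptor, with 0 and 200 bp, and Rgs5, with 0 and 260 bp.

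In the interferon and antigen presentation list 4 of the 8 genes without an end peak in the untreated control gained one, against 4.65% of all such genes. They were Ifit1, Isg20, Oasl2 and Gbp2, all induced by interferon. The 4.65% was also exceeded by other lists, such as clock genes with 2 of 3 and astrocytes with 2 of 8, so the excess is not particular to this list. Ifit1 had 254 covered bases in the ethanol-treated knockdown and 0 in each of the other 3 conditions, Isg20 had 427 and 0, Gbp2 133 and 0, and Oasl2 had 292 in the ethanol-treated knockdown, 237 in the untreated knockdown and 0 in both control conditions. The peaks were 133 to 292 bp wide, with score percentiles from 1.01 to 36.4 within the list. Members with larger peaks differed in both directions. Psmb8, an immunoproteasome subunit, had 420 bp in the ethanol-treated knockdown and 963 in the untreated control, whereas its neighbour Psmb9 had 1686 and 1147, H2-D1 had 1072 and 1583, and Bst2 had 225 and 582. Over the list 14 had more and 10 fewer covered bases (median 62.5 bp), and with the same minimum score in both lists 7 had more and 11 fewer (median −48.5 bp).

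In the glucocorticoid and stress list 10 members had more and 6 fewer covered bases (median 150 bp), with 1 called higher and 2 lower, and the list median was above that of all genes in 6 of 6 settings. Crh, the corticotropin-releasing hormone gene, gained an end peak and had 384 bp in the ethanol-treated knockdown and 0 in the other 3 conditions. Klf15 gained one as well, at a peak that overlaps a control peak outside the window. Per1, which is both a clock gene and a target of the glucocorticoid receptor, had 2369 bp in the ethanol-treated knockdown, 2428 in the untreated knockdown, 1257 in the ethanol-treated control and 1880 in the untreated control. Plin4, a lipid droplet protein, had 803 and 1235 bp in the ethanol-treated knockdown and the untreated control, and Mt2, a metallothionein, had 1936 and 1534. Clock genes had 10 with more and 10 with fewer, and Nfil3 and Csnk1e gained an end peak. Cry2 had 3216 and 2556 bp, Bhlhe40 4825 and 4239, and Rorb 1102 and 1618.

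Immediate early genes had 13 members with more and 12 with fewer covered bases, and a median of 25 bp, close to the 35 bp of all genes. Nptx2, an activity-induced synaptic pentraxin, gained an end peak and had 1009 bp in the ethanol-treated knockdown, 711 in the untreated knockdown, 174 in the ethanol-treated control and 255 in the untreated control. Dusp6, a phosphatase of ERK kinases, had 4795 bp in the ethanol-treated knockdown and 3984 in the untreated control, and Gadd45b had 2119 and 2690. Fos had 2143 and 1769, Arc 2808 and 3199, and Egr1 2869 and 2995. Learning and memory signalling had 14 with more and 9 with fewer (median 73 bp). Prkaca, a catalytic subunit of protein kinase A, had 2660 and 3390 bp, Crtc2, a CREB coactivator, 2818 and 2109, and Prkcz lost an end peak of 145 bp.

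Genes of acetate and acetylation had few calls in either direction, but so did all genes, with 4.82% called higher and 2.96% lower. In lists this short the counts of calls do not set these genes apart. In the ethanol and acetate metabolism list 11 of 18 members with covered bases had more and 7 fewer (median 59.5 bp), and 0 were called in either direction. Its largest differences were at Crat, carnitine acetyltransferase, with 2553 bp in the ethanol-treated knockdown and 3202 in the untreated control, at Acss2, and at Hmgcs1, of sterol synthesis, with 1767 and 1444. Aldh2, the mitochondrial enzyme that turns acetaldehyde into acetate, had 1677 and 1655, Acly, the other cytosolic source of acetyl-CoA, had 1897 and 1952, and Acss1, the mitochondrial acetyl-CoA synthetase, had 1743 and 1900. Among histone acetylation writers, erasers and readers 10 of 26 had more and 16 fewer (median −28.5 bp), and Hdac6, a mostly cytosolic deacetylase, was the 1 gene called, with 942 bp in the ethanol-treated knockdown, 181 in the untreated knockdown, 0 in the ethanol-treated control and 164 in the untreated control. Ep300, an acetyltransferase, had 3029 and 3149 bp, Crebbp 2327 and 1910, and Hdac10 3398 and 3900.

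Among lists of general cell functions, those of the oxidative stress response and of oxidative phosphorylation had medians below that of all genes in 6 of 6 settings, whereas housekeeping, ribosomal and heat shock genes changed side between settings. Housekeeping genes had 10 with more, 12 with fewer and 1 equal (median −91 bp, but 102 bp with the same minimum score in both lists), cholesterol and fatty acid synthesis 11 and 12 (median −87 bp), the oxidative stress response 9 and 11 (median −13.5 bp) and mitochondrial oxidative phosphorylation 15 and 15 (median −2.5 bp). Cytosolic ribosomal proteins had 17 with more and 13 with fewer (median 108.5 bp, but −36.5 bp within 1000 bp of gene ends), with Rplp0 at 2870 bp in the ethanol-treated knockdown and 2271 in the untreated control, Rpl19 at 1910 and 2508, and Rps9 at 2592 and 2034. In the cholesterol and fatty acid synthesis list the largest differences were of both signs. Mvd, of the mevalonate pathway, had 1934 bp in the ethanol-treated knockdown and 2584 in the untreated control, whereas Msmo1 had 1747 and 1373. In the oxidative stress and oxidative phosphorylation lists the largest differences were increases, although decreases reached −334 and −378 bp. Gstm1, a glutathione transferase, had 1604 and 957, Gsr, glutathione reductase, 1660 and 1234, and Prdx1, a peroxiredoxin, 2089 and 1746. Among subunits of the respiratory chain and ATP synthase Atp5a1 had 2314 and 1661, Sdhc 1730 and 1253, and Sdhb 1749 and 1347. Among housekeeping genes Rab7, a late endosome GTPase, had 1631 bp in the ethanol-treated knockdown and 1151 in the untreated control, and Reep5 gained an end peak that overlaps a control peak outside the window. In the heat shock list 13 had more and 8 fewer (median 44 bp, but −116 bp with the same minimum score), where Hspa8 had the largest difference, Hspd1 and Hspe1, which share a promoter, had 2223 and 2729 bp, Hspb8 gained an end peak and Cryab lost one. Markers of hippocampal subfields had 13 with more and 7 with fewer (median 54.5 bp), among them Prox1 of the dentate gyrus with 3538 and 2671 bp, Pou3f1 of CA1 with 2569 and 2985, Tyro3 with 1072 and 524, and Mpped1, which gained an end peak, with 608 and 213.

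Markers of cells that this tissue should hold in small numbers or not at all were also compared. Inhibitory neuron markers had 5 with more and 4 with fewer covered bases (median 133 bp), with Adarb2 at 1093 bp in the ethanol-treated knockdown and 1416 in the untreated control, and Tac1, a neuropeptide precursor, gained an end peak of 133 bp. Ependymal, choroid plexus and neighbouring region markers had 9 and 6 (median 63 bp), with Tcf7l2 at 1364 bp in the ethanol-treated knockdown and 794 in the untreated control, Tshz2 at 886 and 387, and with Lhx9, a homeobox gene, gaining an end peak. Of the 8 genes of other tissues with any coverage 6 had more and 2 fewer (median 97.5 bp), and Scgb1a1, of airway club cells, lost an end peak. The 3 genes of other tissues with the largest differences were Trpc6 with 1066 and 651 bp, Ckm with 353 and 636, and Krt1 with 572 and 353.

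H3K27ac differed in 1 direction at most genes. Of 14744 genes with H3K27ac near their ends, 11928 (80.9%) had more covered bases in the ethanol-treated knockdown than in the untreated control, with a median difference of 210 bp. The whole H3K27ac list covered 57.4 Mb in the ethanol-treated knockdown and 40.1 Mb in the untreated control. The part of this difference in the shares per gene was not tested. Excitatory neuron markers had 20 of 23 with more (median 528 bp), astrocyte markers 20 of 22 (565.5 bp), immediate early genes 25 of 26 (547.5 bp) and interferon genes 23 of 26 (476.5 bp). Such shares were not particular to these lists, since housekeeping genes had 20 of 23 (258 bp) and heat shock genes 21 of 21 (301 bp). The oligodendrocyte lineage had 16 of 26 with more, and 10 with fewer (130.5 bp), and cytosolic ribosomal proteins 18 of 30 (134 bp). Tbr1 had 3962 bp of H3K27ac in the ethanol-treated knockdown and 3457 in the untreated control, Ifit1 had 546 and 0, and Sox10, the master regulator of oligodendrocytes, had 2085 and 3059, next to 1342 and 1778 bp of H3K9ac. Cldn11 had 2662 and 2410 bp of H3K27ac, the opposite order to its H3K9ac. Both marks were measured in chromatin of the same groups and may share inputs, so they are not independent of the mice used.

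Promoters with a peak in 1 list only were less rich in CpG than those with a peak in both. Of 21263 promoter windows, 719 had a peak in the ethanol-treated knockdown only, 675 in the untreated control only and 10611 in both. The median ratio of observed to expected CpG was 0.615 for promoters covered only in the ethanol-treated knockdown, 0.647 for those covered only in the untreated control, 0.799 for those covered in both and 0.567 over all. GC content had medians of 59.3%, 59.0%, 62.7% and 56.3% in the same order. Motifs were searched on both strands. CCGGAAG, the core bound by ETS factors, was in 7.93% of promoters covered only in the ethanol-treated knockdown, 9.04% of those covered only in the untreated control, 19.6% of those covered in both and 11.6% of all. The GC box GGGCGG was in 62.0%, 61.9%, 69.3% and 46.2%, the E-box CACGTG in 6.95%, 9.48%, 10.4% and 7.84%, the cAMP response element TGACGTCA in 2.36%, 2.37%, 3.42% and 2.23%, and the AP-1 motif TGANTCA in 5.42%, 5.48%, 3.93% and 6.99%. For each of the 5 motifs the share in promoters covered only in the ethanol-treated knockdown was within 3 percentage points of that in promoters covered only in the untreated control.

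Few high-scoring peaks away from gene ends were found in 1 list only. The 3 highest-scoring gained ones were chr7:92632387-92632625, inside Ankrd42 and 239 bp wide, chr8:121878572-121878875 and chr2:58108028-58108214, both outside genes. Their scores were 46.3, 38.2 and 28.0, and the first stood in both the untreated knockdown and the ethanol-treated control as well. The 3 highest-scoring lost ones were chr11:25099997-25100243, outside genes, chr14:77050756-77051900, inside Ccdc122 and 1145 bp wide, and chr7:139189432-139189639, inside Stk32c. Their scores were 45.7, 35.4 and 24.2. Neither of the first 2 had an H3K27ac peak in any condition, and the third lay 396 bp from a peak of the ethanol-treated knockdown list.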

How the data were processed

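Chromatin immunoprecipitation followed by sequencing was run on the dorsal hippocampus, with inputs, in 36 samples of 12 groups. The authors deposited 1 peak list for each mark and condition, so the 3 samples of a group have no values of their own. The way they were pooled is not stated in the labels, which give a false discovery rate of 0.001 for peaks over input. The deposited score was taken to be −log10 of a q-value, because its minimum in every list is at least 3. This score of the authors grows with depth, and it ranked or filtered peaks inside 1 list, except in 1 alternative that applied a common score. MACS2, bedtools, STAR 2.5.2a, bcl2fastq and the build GRCm38 (mm10) appear in the submitters' processing notes, with no role stated. Depth per sample is unknown.

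Peaks on the 19 autosomes, X and Y were compared by intervals, with an overlap of 1 base as a match. Gene ends came from the RefSeq gene table (GRCm38.p6), and start sites from the RefSeq promoter table, which has them for 17492 of 21887 protein-coding genes. The steps were written in Python 3.11.15 with numpy 2.4.6, tested on simulated data, and checked against bedtools 2.31.1. No test or p-value is possible between groups of 1 list each. Named were Acss2, the 10 highest-scoring gained and lost end peaks, the 10 largest increases and decreases in covered bases, every list member that gained or lost an end peak, the 3 members of each list with the largest difference, and the 3 highest-scoring distal peaks of each class; further list members were chosen after their values were seen, and some genes the rule names are not reported here. The members, the 26 gene lists (665 genes; Mx1 and Mx2 were not matched) and the tests were chosen with earlier results of these data known. Alternatives changed the overlap, joined nearby peaks, equalised the lists, or changed the gene window.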

Additional observations from a re-analysis of the deposited data

How the results depend on the processing

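Leaving out replicates could not be done, since each list stands for all 3 samples of a group. No paired analysis was possible because the replicate numbers of a group share 1 peak list. Gained and lost peaks stood at 12538 and 8248, and they numbered 7559 and 4760 when a counterpart within 500 bp counted as a match, 6443 and 4507 when peaks within 1000 bp were joined, 2473 and 2011 at a common score of 9.481 in both lists, and 817 and 287 among peaks at or above the median score of their own list. The order of the 2 counts was the same in each. With lists of equal length 9758 peaks were gained and 9083 lost. Genes with an end peak gained and lost stood at 426 and 293. They numbered 263 and 179 at annotated starts only, 388 and 269 when the highest-scoring end peak had to lack any counterpart (added after seeing the data), 353 and 350 with lists of equal length, and 416 and 433 at the common score, where the lost genes outnumber the gained. At that score 1044 genes were called higher and 863 lower in covered bases, against 661 and 406. The Wilson interval of a short list is wide, such as 40.9 to 92.9% for genes of other tissues and 13.7 to 69.4% for microglia. The alternatives also reuse the same peaks, so a share that stays inside its interval says little. Of 130 combinations of a gene list and an alternative, 125 gave a share of members with more covered bases inside the interval of the share reported. The 5 others were histone acetylation genes over the whole gene (61.3%, against 38.5% as reported), glutamate genes over the whole gene (85.3%, against 68.8%), GABA genes at the common score (58.8%, against 88.9%), clock genes within 5000 bp (75.0%, against 50.0%) and housekeeping genes at the common score (65.2%, against 43.5%). In 6 of 6 settings the list medians of excitatory neurons (236 to 694.5 bp), GABA signalling (110.5 to 197.5 bp), glutamate receptors, presynaptic release, glucocorticoid response, hippocampal subfields, inhibitory neurons and astrocytes were above that of all genes, and those of the oligodendrocyte lineage (−319 to −22 bp), the oxidative stress response and oxidative phosphorylation were below it. The cause of these shifts was not tested. Unknown depth limits every difference in list length.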

Other observations

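The X chromosome had the lowest shares of peaks found in 1 list only among the autosomes and X. There 226 of 905 ethanol-treated knockdown peaks were gained (25.0%, 95% Wilson interval 22.3 to 27.9) and 97 of 800 untreated control peaks were lost (12.1%, 10.0 to 14.6). On the autosomes the gained share ran from 26.5% on chromosome 13 to 32.8% on chromosome 12, and the lost share from 16.6% on chromosome 13 to 24.2% on chromosome 11. Both lists also held peaks on sequences outside the assembled chromosomes, 147 in the ethanol-treated knockdown and 133 in the untreated control. A lost peak at chr11:25099997-25100243 scored 45.7, above 96.5% of the untreated control list, was only 247 bp wide, and lay 257050 bp from the nearest peak of the ethanol-treated knockdown list.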
